A study of Homo sapiens with 6 samples.

Results

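AP-1 is a family of basic leucine zipper (bZIP) transcription factors that bind DNA as dimers, and 10 of its genes and close relatives were followed here: the FOS-type genes FOS, FOSB, FOSL1 and FOSL2, the JUN-type genes JUN, JUNB and JUND, BATF3, and the small MAF genes MAFF and MAFK. They were taken by symbol and all 10 were found among the 65198 gene rows of the data. RNA had been sequenced from 2 derivatives of MDA-MB-231, a breast cancer line of the basal-like subtype, both kept in 1 µg/ml doxycycline for 96 h. In shHOTAIR a hairpin under tetracycline control targeted HOTAIR, a HOXC-locus transcript that codes for no protein, and in shCtrl the inducible hairpin was a scrambled one. With 3 independent repeats of each there were 6 libraries, and the comparison asked how expression differed when HOTAIR was targeted. Each group is 1 derivative, not stated to be a clone or a pool, so the hairpin and any other difference between the derivatives cannot be told apart, and p-values measure the spread between repeats of a derivative.

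JUN proteins can pair with each other or with a FOS protein, whereas FOS proteins need a JUN-type partner, and the makeup of the dimer sets which sites are bound and how strongly genes are driven. FOS, FOSB, JUN and JUNB belong to the immediate early genes, which respond within minutes to growth factor and stress signals through MAP kinases. FOSL1 encodes FRA-1, the FOS-type protein best known for high levels in mesenchymal-like, invasive breast cancer cells. BATF3 encodes a short bZIP protein that pairs with JUN proteins and lacks a transactivation domain. The small MAF proteins MAFF and MAFK also lack such a domain and pair with NRF2, BACH1 and related factors.

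JUN and FOSL2 were higher and JUNB and JUND lower in shHOTAIR, so the promoters of these members are set side by side, each from 250 bases before to 50 bases after the annotated start (RefSeq, GRCh38.p14, 5′ to 3′ on the strand of the gene). Capitals mark the 7-base AP-1 motif TGANTCA, the 8-base cyclic AMP response element TGACGTCA, or TGACATCA, the 8-base variant known from the JUN promoter, each searched on both strands. The windows are chr1:58783998-58784297 (minus strand) for JUN, chr2:28392608-28392907 (plus) for FOSL2, chr19:12791236-12791535 (plus) for JUNB and chr19:18281573-18281872 (minus) for JUND.
JUN: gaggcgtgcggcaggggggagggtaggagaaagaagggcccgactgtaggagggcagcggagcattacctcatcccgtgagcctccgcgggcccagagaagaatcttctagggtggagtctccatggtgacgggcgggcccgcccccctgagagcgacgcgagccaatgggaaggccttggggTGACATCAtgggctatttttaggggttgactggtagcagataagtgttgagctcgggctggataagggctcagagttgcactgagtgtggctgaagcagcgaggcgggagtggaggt
FOSL2: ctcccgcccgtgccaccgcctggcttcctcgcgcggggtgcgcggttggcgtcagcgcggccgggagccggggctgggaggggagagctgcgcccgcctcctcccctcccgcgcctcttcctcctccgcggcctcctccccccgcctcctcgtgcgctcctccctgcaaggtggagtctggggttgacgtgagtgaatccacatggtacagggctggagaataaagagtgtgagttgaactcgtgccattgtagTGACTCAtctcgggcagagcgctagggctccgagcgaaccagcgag
JUNB: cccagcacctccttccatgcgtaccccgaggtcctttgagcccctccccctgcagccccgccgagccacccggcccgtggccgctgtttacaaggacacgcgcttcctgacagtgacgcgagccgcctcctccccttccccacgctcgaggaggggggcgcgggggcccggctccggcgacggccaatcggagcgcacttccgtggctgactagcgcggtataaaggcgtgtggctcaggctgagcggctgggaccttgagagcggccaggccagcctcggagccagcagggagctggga
JUND: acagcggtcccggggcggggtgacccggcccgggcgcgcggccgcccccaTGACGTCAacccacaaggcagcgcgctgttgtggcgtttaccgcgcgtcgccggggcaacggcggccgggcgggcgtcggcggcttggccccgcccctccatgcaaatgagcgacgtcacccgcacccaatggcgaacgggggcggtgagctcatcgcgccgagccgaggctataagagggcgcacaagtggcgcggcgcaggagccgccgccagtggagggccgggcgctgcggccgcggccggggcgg
The JUN window held TGACATCA 67 bases before the start, a motif held by 2.61% of 35116 promoters of this length. In FOSL2 a TGANTCA motif, present in 7.71% of promoters, began at base 5 after the start. JUND held TGACGTCA 200 bases before the start, a motif of 1.85% of promoters, and JUNB held none of the 3 motifs. Of the 10 genes 7 had a promoter sequence. Of those not printed, FOS and FOSB held none of the 3 motifs. MAFF had 2 annotated starts, one with TGACGTCA 54 bases before it and one with no match. Other variants of these motifs were not searched. TGACATCA was searched as known from the JUN promoter, so its match there is no independent result.

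Expression was measured as FPKM, fragments scaled to transcript length and to the mapped fragments of the library, so levels can be compared between genes. How many fragments each library held is unknown here. The worth of 1 fragment relative to shCtrl 1 was taken from the spacing of the lowest values. It was 0.812 and 0.839 in the other shCtrl libraries and 0.595 to 0.717 in shHOTAIR. A smaller worth can come from a deeper library or from a different scaling, and which applied was not tested. Summed FPKM was 2224150 to 2569505 in shCtrl and 1620978 to 1820768 in shHOTAIR. HOTAIR was listed at 0, 0.0128 and 0.0132 FPKM in shCtrl and at 0, 0 and 0.0113 FPKM in shHOTAIR (exact two-sided permutation p = 0.4, where 0.1 is the smallest that 3 against 3 can give), so a difference in the target was not detectable at this depth. Among the markers of the line, VIM, CD44, EGFR and CAV1 reached 1 FPKM and KRT81 did not. The 5 summed to 1550 to 1649 FPKM in shCtrl and 1156 to 1301 FPKM in shHOTAIR, but VIM fell (mean 948 to 393 FPKM) while EGFR (76.7 to 157) and CAV1 (116 to 218) rose and CD44 was not called. The 8 luminal markers summed to 319 to 361 FPKM in shCtrl and 439 to 552 FPKM in shHOTAIR, where KRT8, KRT18 and GATA3 rose, KRT19 and FOXA1 fell, PGR was at 0 and ESR1 and EPCAM were below 0.1 FPKM in all libraries. The 5 leukocyte markers, of which LYZ alone reached 1 FPKM, summed to 1 to 1.89 FPKM in shCtrl and 0.414 to 0.886 FPKM in shHOTAIR. The part of these markers in the results was not tested. In bulk RNA, fewer cells of a kind and less RNA per cell cannot be told apart.

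The 10 genes split by direction. FOSL1, FOSL2 and JUN were higher in shHOTAIR and JUNB, JUND and FOS were lower, 6 of 10 at an adjusted p under 0.05 in limma (moderated test of log2(FPKM + 1) across 15934 genes). Over all genes tested the share was 23.8%, with 11.5% higher and 12.4% lower. The remaining 4, FOSB, BATF3, MAFF and MAFK, had lower means that did not pass. In 9 of the 10 genes, all but MAFK, the 2 groups held separate ranges (3 higher, 6 lower), against 43% of all genes tested (19.9% higher, 23.2% lower). The median log2 change of the 10 was -0.44, against -0.03 over all genes. Without shHOTAIR 2 only FOSL2, JUN and JUNB were called, and those 3 were called under every alternative tried.

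**Figure D1:**
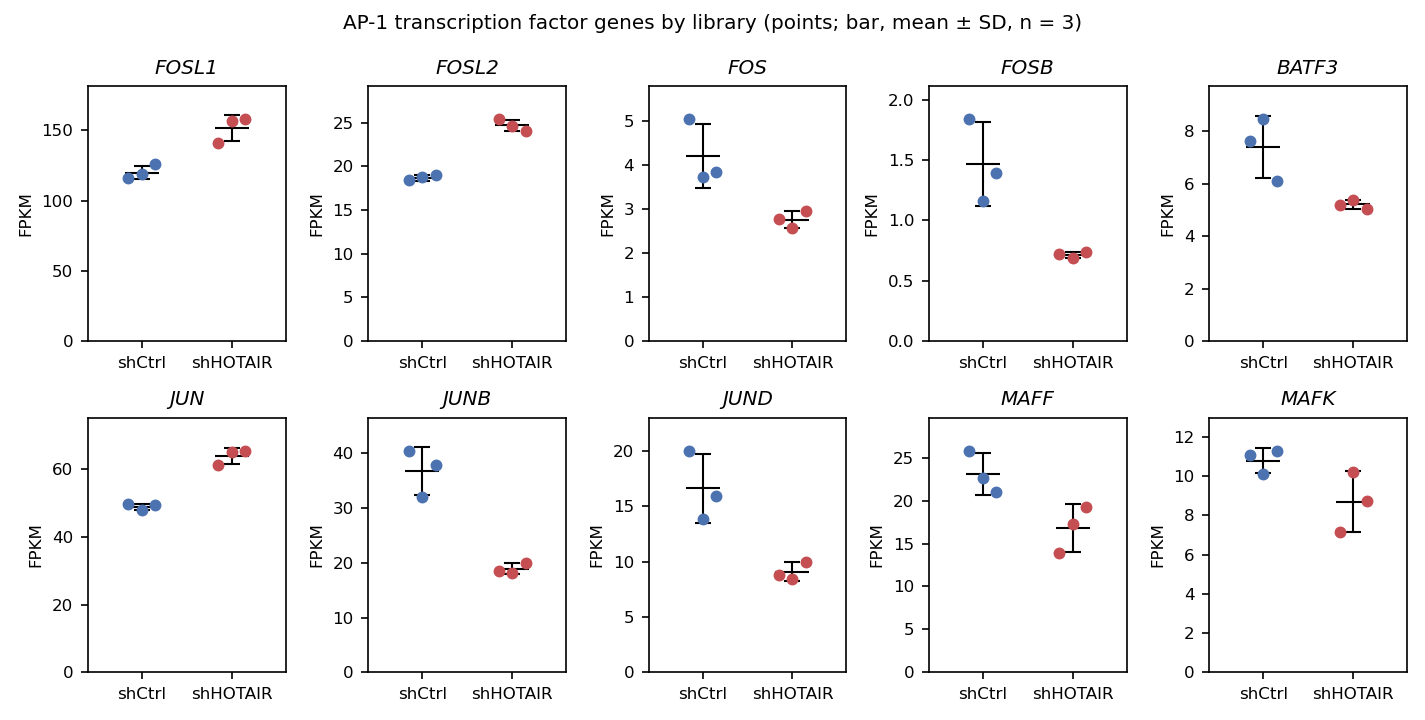
FPKM (vertical axis, from 0) of each of the 10 genes in the 3 shCtrl and 3 shHOTAIR libraries, with points for libraries in the order of the repeats 1 to 3 and bars for the mean ± SD. FOSL1, FOSL2 and JUN lie higher in all 3 shHOTAIR libraries, and the other genes except MAFK lie lower in all 3.

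JUN, the founding member of the family (chromosome 1, 58780788 to 58784327 on GRCh38, minus strand), was measured at 49.5, 47.8 and 49.2 FPKM in shCtrl 1, 2 and 3 and at 61.1, 64.9 and 65.3 FPKM in shHOTAIR 1, 2 and 3. Every shHOTAIR value lay above every shCtrl value. The mean rose from 48.8 ± 0.95 to 63.8 ± 2.32 FPKM (SD, n = 3 in each group), a log2 change of 0.38 (SE 0.0488, limma adjusted p = 0.00497). Of the 50 nearest protein-coding genes tested 12 rose and 3 fell, with a median log2 change of 0.20. Centred on those neighbours the change of JUN was 0.23 (limma adjusted p = 0.0363).

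JUNB, which forms weaker activating dimers than JUN and can oppose it at some genes, moved the other way (chromosome 19, 12791496 to 12793315, plus strand). Its FPKM was 40.4, 32 and 37.8 in shCtrl and 18.4, 18.2 and 20 in shHOTAIR, so the lowest shCtrl library was well above the highest shHOTAIR library. The mean fell from 36.7 ± 4.3 to 18.9 ± 0.968 FPKM, a log2 change of -0.92 (SE 0.0976, limma adjusted p = 0.00276), a change larger than that of 83.6% of all called genes. JUNB shares exonic sequence with HOOK2, a gene on the opposite strand, with the strand setting of the counting not given in the sources used here. HOOK2 read 49.6, 37.3 and 41.8 FPKM in shCtrl and 25.5, 58.3 and 56.4 FPKM in shHOTAIR. Whether reads of HOOK2 enter the JUNB values was not tested.

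JUND, usually the steadily expressed JUN protein of resting cells (chromosome 19, 18279760 to 18281622, minus strand), read 20, 13.8 and 15.9 FPKM in shCtrl and 8.79, 8.43 and 10 FPKM in shHOTAIR. The groups did not overlap. Its mean fell from 16.6 ± 3.13 to 9.09 ± 0.846 FPKM, a log2 change of -0.79 (SE 0.143, limma adjusted p = 0.014). That call was lost without shCtrl 3, shHOTAIR 1 or shHOTAIR 2, with limma adjusted p up to 0.0624. JUNB and JUND lie on the same chromosome, and around each of them the called neighbours were all lower. Of the 50 neighbours of JUNB 12 fell and 0 rose (median log2 change -0.29), and of those of JUND 8 fell and 0 rose (median -0.22). Centred on these neighbours JUNB was at -0.63 (limma adjusted p = 0.00978) and JUND at -0.57 (0.0377).

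The longest transcripts of JUN, JUNB and JUND all have 1 exon, and their GC content was 56.7%, 64.9% and 69.7%. Compared with the 200 protein-coding genes nearest in GC content, the log2 changes were 0.46, -0.86 and -0.68 and all were called (limma adjusted p of 0.00139, 0.00255 and 0.013).

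**Figure D2:**
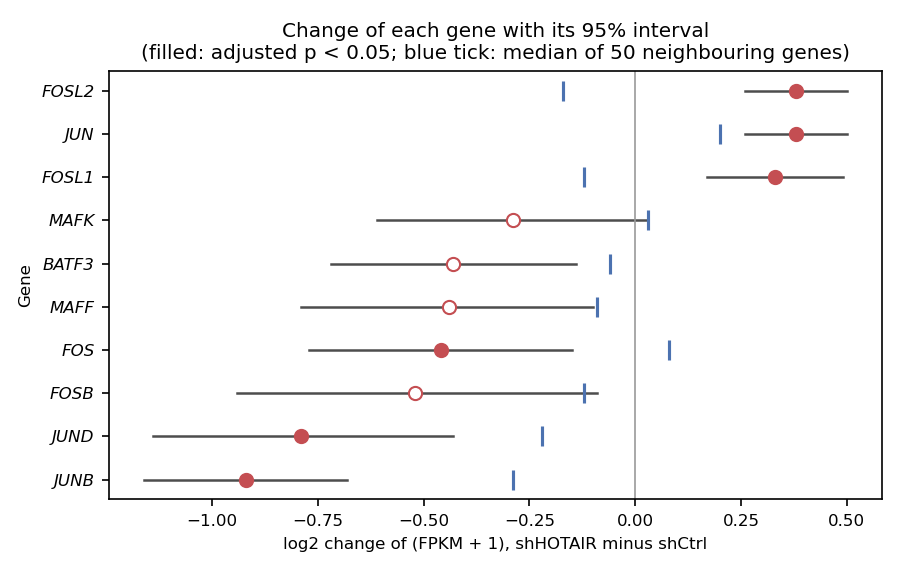
Change of each gene (circle, log2 of FPKM + 1, shHOTAIR minus shCtrl) with its 95% interval (line), filled where the adjusted p is under 0.05, and the median change of its 50 neighbouring protein-coding genes (blue tick). FOSL1 and FOSL2 rose among neighbours with medians of -0.12 and -0.17, and JUNB and JUND fell further than their neighbours.

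The makeup of the JUN-type RNA pool was also compared within each library, with no test, as a measure that does not move with the scaling of a library. JUN made up 45.1%, 51% and 47.8% of the summed JUN, JUNB and JUND FPKM in shCtrl 1, 2 and 3 and 69.2%, 70.9% and 68.5% in shHOTAIR. JUNB made up 36.8%, 34.2% and 36.7% in shCtrl and 20.9%, 19.9% and 21% in shHOTAIR. The ratio of JUNB to JUN was 0.816, 0.67 and 0.768 in shCtrl and 0.302, 0.28 and 0.306 in shHOTAIR. The summed level of the 3 genes was 102 ± 8.19 FPKM in shCtrl and 91.7 ± 3.51 FPKM in shHOTAIR, and there the groups overlapped.

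**Figure D3:**
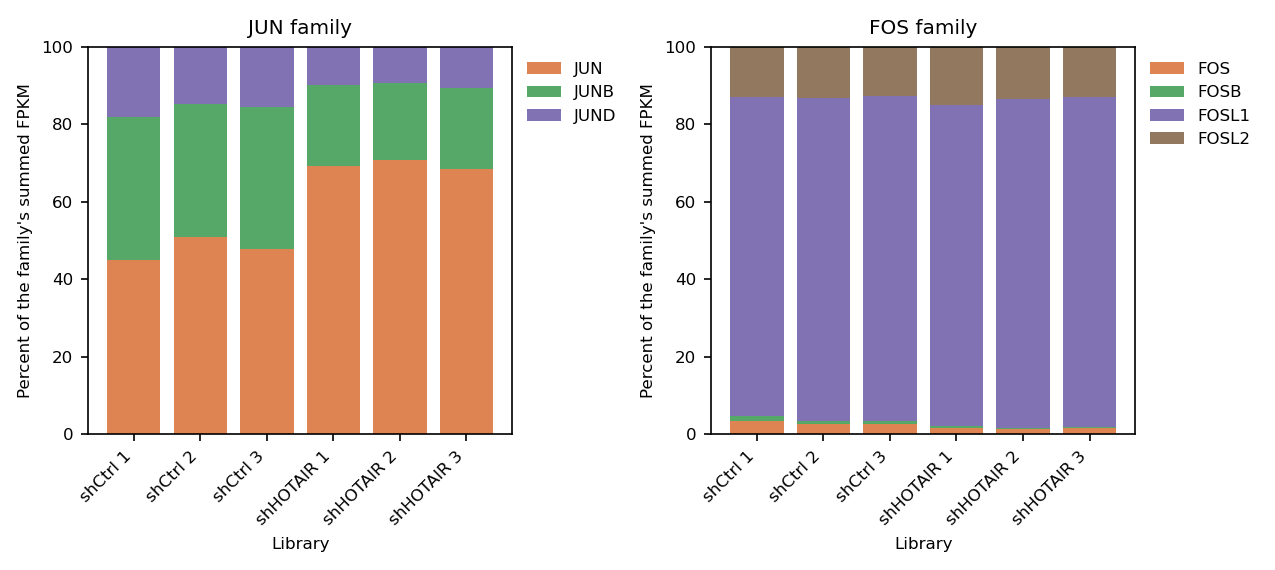
Share of each gene (percent, stacked bars) in the summed FPKM of the JUN-type genes (left) and of the FOS-type genes (right) in each library. JUN takes 45.1% to 51% in shCtrl and 68.5% to 70.9% in shHOTAIR, whereas FOSL1 takes 82.1% to 85% of the FOS-type pool in all 6 libraries.

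FOSL1 was the most abundant of the 10 genes in both groups (chromosome 11, 65892049 to 65900573, minus strand). Its FPKM was 116, 119 and 126 in shCtrl and 141, 157 and 158 in shHOTAIR, without overlap. From 120 ± 4.94 FPKM the mean rose to 152 ± 9.21 FPKM, a log2 change of 0.33 (SE 0.0647, limma adjusted p = 0.0174). Without shCtrl 1, shCtrl 2, shHOTAIR 2 or shHOTAIR 3 the change was 0.31 to 0.33 and was not called, with limma adjusted p up to 0.058.

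FOSL2, which encodes FRA-2 (chromosome 2, 28392448 to 28417312, plus strand), read 18.4, 18.8 and 19 FPKM in shCtrl and 25.4, 24.6 and 24.1 FPKM in shHOTAIR. The spread within each group was small beside the gap between them. The mean rose from 18.7 ± 0.322 to 24.7 ± 0.647 FPKM, a log2 change of 0.38 (SE 0.0469, limma adjusted p = 0.00424). Among its 50 neighbours 0 rose and 13 fell.

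FOS, the classic immediate early partner of JUN (chromosome 14, 75278774 to 75282230, plus strand), was low in both groups, at 5.04, 3.73 and 3.84 FPKM in shCtrl and 2.77, 2.57 and 2.95 FPKM in shHOTAIR. The lowest shCtrl value was above the highest shHOTAIR value. The mean fell from 4.21 ± 0.723 to 2.76 ± 0.188 FPKM (log2 change -0.46, SE 0.126), and at a limma adjusted p of 0.049 it passed narrowly. Leaving out any 1 library ended the call, with limma adjusted p from 0.0707 to 0.132.

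FOSB, the other immediate early FOS gene (chromosome 19, 45467995 to 45475179, plus strand), was the lowest of the 10. It read 1.84, 1.16 and 1.39 FPKM in shCtrl and 0.719, 0.686 and 0.735 FPKM in shHOTAIR, without overlap. The log2 change of -0.52 (95% interval -0.94 to -0.09) did not pass (limma adjusted p = 0.0854). The added 1 shrinks changes near 1 FPKM. With 0.01 added instead, the change was -1.0 and passed (limma adjusted p = 0.0375).

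FOS and FOSB together with the more abundant FOSL1 and FOSL2 gave a summed FOS-type level of 145 ± 4.6 FPKM in shCtrl and 180 ± 8.6 FPKM in shHOTAIR, without overlap. FOSL1 held 83.1% ± 0.898 of it in shCtrl and 84.3% ± 1.11 in shHOTAIR, and these shares overlapped. The share of FOS was 2.91% ± 0.566 in shCtrl and 1.54% ± 0.128 in shHOTAIR, and that of FOSB was 1.02% ± 0.257 and 0.396% ± 0.0258. The ratio of FOS to FOSL1 was 0.0434, 0.0313 and 0.0306 in shCtrl and 0.0196, 0.0164 and 0.0187 in shHOTAIR.

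BATF3 (chromosome 1, 212686418 to 212699985, minus strand), best known from dendritic cells, read 7.64, 8.46 and 6.12 FPKM in shCtrl and 5.19, 5.39 and 5.04 FPKM in shHOTAIR. No shHOTAIR library reached the lowest shCtrl library. The change of -0.43 (95% interval -0.72 to -0.14) missed the threshold by a small margin (limma adjusted p = 0.0503), and 5 of 17 alternatives called it. Without shCtrl 3 it was called (0.0258), and without any other 1 library it was not (0.12 to 0.146). The summed leukocyte markers given above were also lower in shHOTAIR, and any link to BATF3 was not tested. Of the 5, LYZ and PTPRC had separate groups, CD3E, CD14 and CD79A overlapped, and none passed the filter on low values.

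The small MAF genes were lower on average and did not pass. MAFF (chromosome 22, 38200767 to 38216511, plus strand) read 25.8, 22.6 and 21 FPKM in shCtrl and 13.9, 17.3 and 19.3 FPKM in shHOTAIR (log2 change -0.44, limma adjusted p = 0.0714). Its groups were separate, with shHOTAIR 1 the lowest library. MAFK (chromosome 7, 1530714 to 1543043, plus strand) read 11.1, 10.1 and 11.3 FPKM in shCtrl and 7.14, 10.2 and 8.75 FPKM in shHOTAIR (log2 change -0.29, limma adjusted p = 0.159). Here shHOTAIR 2 lay within the shCtrl range, and shHOTAIR 1 was again the lowest. MAFK shares exonic sequence with TMEM184A on the opposite strand, which did not exceed 2.39 FPKM. MAFG, the other small MAF gene, averaged 14 ± 0.797 FPKM in shCtrl and 12.8 ± 0.632 FPKM in shHOTAIR and missed the threshold (limma adjusted p = 0.242).

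**Figure D4:**
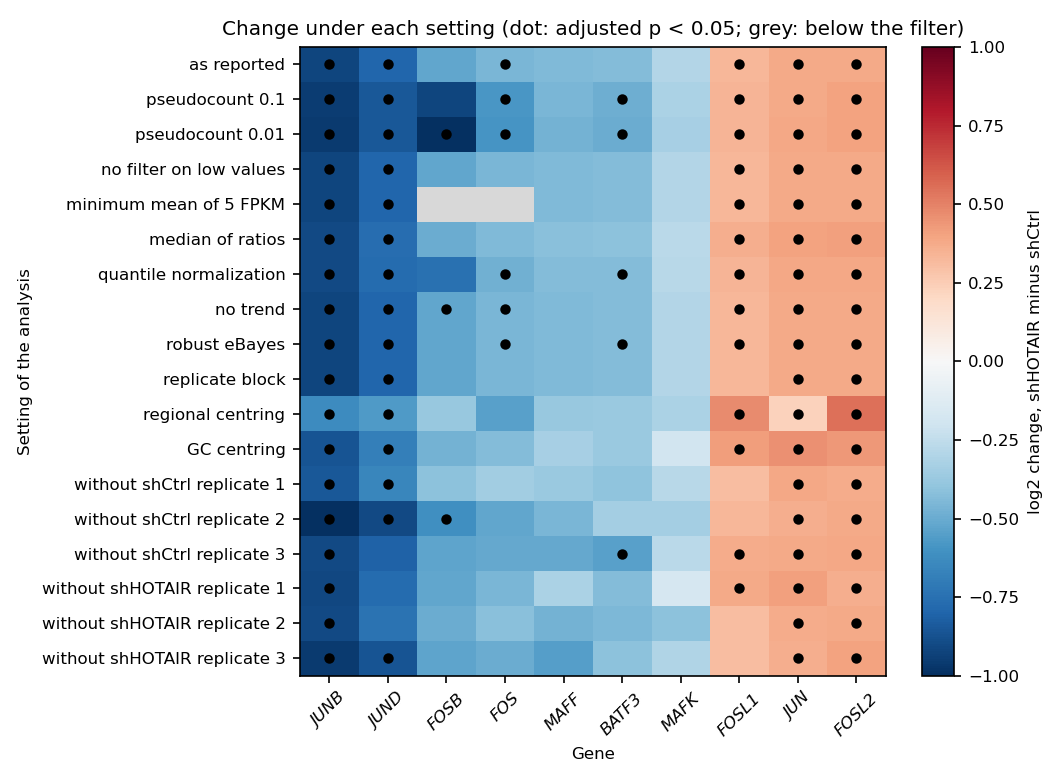
Log2 change of each gene (columns, color scale from lower in blue to higher in red) as reported and under 17 alternatives (rows), with a dot where the adjusted p is under 0.05 and grey where a gene is below the filter. JUNB, JUN and FOSL2 carry a dot in every row, and MAFF and MAFK in none.

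By level, FOSL1 led in both groups, followed by JUN. In shCtrl the order went on with JUNB, MAFF, FOSL2, JUND, MAFK, BATF3, FOS and FOSB, and among neighbours in that order only FOSL2 and JUND overlapped in their libraries. In shHOTAIR FOSL2 came next, ahead of JUNB, MAFF, JUND, MAFK, BATF3, FOS and FOSB, and the pairs JUNB with MAFF and JUND with MAFK overlapped.

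JUNB had the largest change of the called members. The protein-coding genes whose profile over the 6 libraries was nearest to it, by Euclidean distance of centred log2(FPKM + 1) values among 11586 genes, were MSS51 (distance 0.085), RND3 (0.12) and TRAPPC11 (0.139). RND3, which encodes a small GTP-binding protein, read 163, 138 and 150 FPKM in shCtrl and 78.8, 75.7 and 78.9 FPKM in shHOTAIR. In each of these genes shCtrl 1 was the highest library and shCtrl 2 the lowest of the shCtrl libraries, as in JUNB. They were picked for their likeness to JUNB over these same libraries, so this shared order is no independent result.

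Other bZIP factors that pair with or resemble AP-1 proteins were followed beside the members. Of 16 listed 10 were tested, of which 3 fell and 0 rose, with a median log2 change of -0.07. The share called was 30%, against 23.8% of all genes tested. ATF3, a stress-induced factor, fell from 13.1 ± 1.64 to 4.66 ± 0.886 FPKM, a log2 change of -1.33 (limma adjusted p = 0.00309), a larger log2 change than that of any of the 10 members. Its libraries read 14.9, 11.6 and 12.9 FPKM in shCtrl and 3.79, 4.62 and 5.56 FPKM in shHOTAIR. BACH1, a repressor that pairs with small MAF proteins, fell from 78.8 ± 4.35 to 50.1 ± 2.66 FPKM, a log2 change of -0.64 (limma adjusted p = 0.00256). NFE2L2, which encodes NRF2, fell by a log2 change of -0.21, a call lost without any library but shCtrl 3 (limma adjusted p up to 0.0876) and after regional centring (0.205). NFE2L3 was at 0.20 and did not pass (0.167). BATF, BATF2, MAF, MAFA and NFE2 stayed below a mean of 1 FPKM.

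Immediate early genes outside the AP-1 family were followed because many share the upstream signals of FOS, JUN and JUNB. Of 18 listed 13 were tested, of which 4 fell and 1 rose, with a median log2 change of -0.38. The share called was 38.5%, against 23.8% of all genes tested. EGR1, a zinc finger factor induced with FOS, fell from 11.8 ± 0.482 to 3.75 ± 0.346 FPKM, a log2 change of -1.44 (limma adjusted p = 0.000589). KLF6 fell from 46.2 ± 1.44 to 20.5 ± 0.694 FPKM, a log2 change of -1.14 (limma adjusted p = 0.000406). KLF6 lies on chromosome 10, and centred on its neighbours its change was -0.46 (limma adjusted p = 0.00679). KLF4 (-0.38) and IER3 (-0.56) fell as well, and IER5 rose by 0.56. The KLF4 call was lost without shCtrl 1, shCtrl 2, shHOTAIR 1 or shHOTAIR 2 (limma adjusted p up to 0.0881) and that of IER3 without any library but shCtrl 2 (up to 0.106).

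Regulators upstream of AP-1 came next. Among the MAP kinases and their activators 19 of 22 were tested, of which 1 rose and 2 fell, a share of 15.8% called against 23.8% of all genes. Of the 19, 10 had separate groups, where 43% of all genes tested did. An unadjusted p under 0.05 was found in 7 of the 19, with the share over all genes not computed. RPS6KA1, a kinase downstream of ERK, rose from 16.3 ± 0.995 to 26.6 ± 3.88 FPKM, a log2 change of 0.67 (limma adjusted p = 0.012), a call lost without shCtrl 1, shCtrl 3 or shHOTAIR 3 (up to 0.0546) and after regional centring (0.0526). MAPK8, which encodes the JUN kinase JNK1, fell from 189 ± 0.507 to 137 ± 12.2 FPKM, a log2 change of -0.47 (limma adjusted p = 0.00866). It lies on chromosome 10, and after regional centring its change was 0.01 (limma adjusted p = 0.929). MAPK12, a p38 kinase, fell by -0.29, a call lost without shCtrl 1, shCtrl 3 or shHOTAIR 2 (limma adjusted p up to 0.0592). MAP2K5 was at -0.21 and did not pass (0.0541).

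SRF, the serum response factor that acts at immediate early promoters, fell from 13.7 ± 0.554 to 10.2 ± 0.428 FPKM, a log2 change of -0.40 (limma adjusted p = 0.00744), and after regional centring it was at 0.08 (0.444). MEF2A rose by 0.32, a call lost when any 1 library was left out (limma adjusted p up to 0.0941), and its change after regional centring was -0.05 (0.72). The other 8 genes of that list, ELK3 (-0.17) and MRTFB (0.48) among them, did not pass. In that list 20% were called, against 23.8% of all genes tested. Of 7 genes for the turnover or restraint of JUN and FOS proteins, COP1, HDAC3, STUB1 and FBXW7 among them, 0 were called in limma. Over all genes tested the share called was 23.8%. An unadjusted limma p under 0.05 was found in 2 of the 7, with the share over all genes not computed. After regional centring 1 was called, FBXW7, with its sign reversed. Its change was 0.10 before centring (limma adjusted p = 0.321) and -0.27 after it (0.0478).

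Reported AP-1 target genes moved in both directions. Of 25 tested, 9 rose and 7 fell, with a median log2 change of 0.02 (64% called, against 23.8% of all genes tested). The list was drawn up with the changes of several of its members known, so its count is no independent evidence. HBEGF, an EGF receptor ligand, rose from 25.2 ± 0.82 to 52.4 ± 1.22 FPKM, a log2 change of 1.03 (limma adjusted p = 0.000406), and PLAU, the urokinase protease, by 0.77. SERPINB2 (2.71) rose by more, though its annotated span overlaps that of SERPINB10, with which it may share reads. IL24, a cytokine, fell from 136 ± 21 to 12.4 ± 5.56 FPKM, a log2 change of -3.41 (limma adjusted p = 0.00163).

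The matrix metalloprotease genes of that list, named here after their values were seen, were split. The collagenase gene MMP13 rose from 2.74 ± 0.657 to 12.1 ± 1.7 FPKM, a log2 change of 1.82 (limma adjusted p = 0.00193) and the stromelysin gene MMP3 from 39.7 ± 2.56 to 74.6 ± 12.2 FPKM (0.88, limma adjusted p = 0.00767). The collagenase gene MMP1, whose promoter is a textbook AP-1 target, fell from 14085 ± 1487 to 7985 ± 771 FPKM, a log2 change of -0.82 (limma adjusted p = 0.00735), a call lost without shHOTAIR 2 (0.0552). MMP10 fell by -0.95, a call lost after regional centring (limma adjusted p = 0.0566) and with the replicate block (0.071). All 4 genes lie on chromosome 11.

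**Figure D5:**
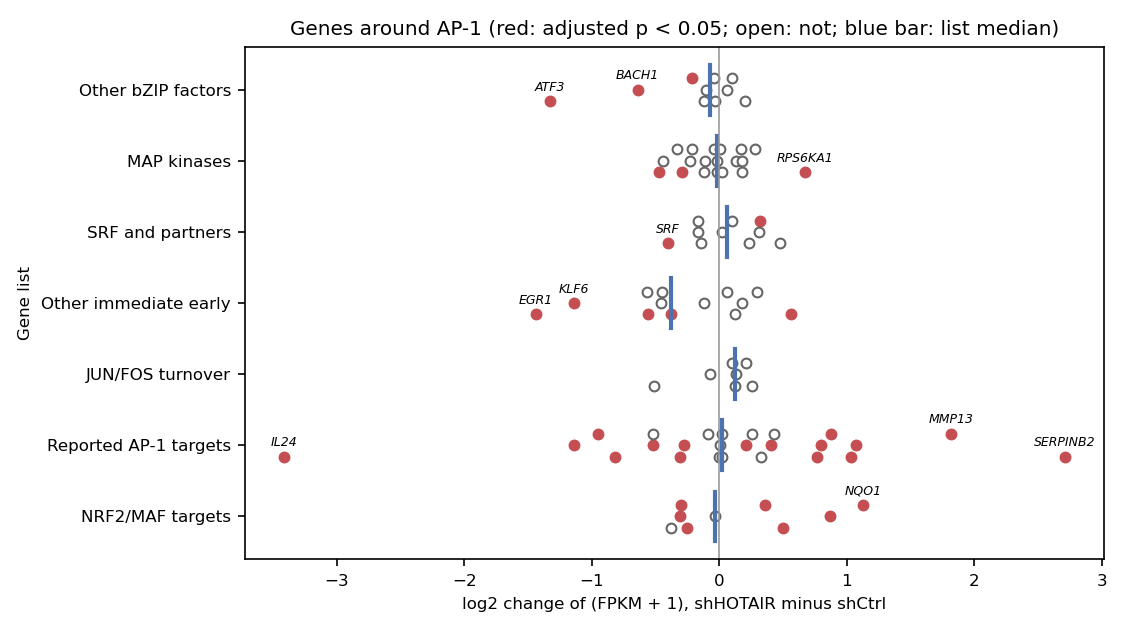
Change (horizontal axis, log2 of FPKM + 1, shHOTAIR minus shCtrl) of each tested gene in 7 lists around AP-1, red where the adjusted p is under 0.05 and open where it is not, with the list median as a blue bar. The reported AP-1 targets spread from IL24 at -3.41 to SERPINB2 at 2.71 around a median of 0.02, and the other immediate early genes have a median of -0.38.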

How the data were processed

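Poly(A) RNA of 6 libraries, 3 per group, was sequenced. The authors deposited FPKM per gene and library, and the tools named, per the submitters' processing notes, include DESeq and TopHat2 2.0.13, with GRCh38 as build and no roles stated. Which program made the FPKM, with which annotation and strand setting: not given in the sources used here. Of 65198 rows 56807 matched GENCODE 29 by Ensembl identifier. Of the tested genes, 0% had equal values above 0 in any pair of replicates.

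The 15934 genes averaging 1 FPKM or more over all libraries were compared as log2(FPKM + 1) with limma 3.58.1 in R 4.3.3 (intensity trend, no block, Benjamini-Hochberg adjustment over all of them, threshold 0.05). Intervals are 95%. On simulated data for this comparison (15934 genes), 22% of 100 genes changed by 0.5 and 67% of 100 changed by 1 on the log2 scale were called, and 5 unchanged genes. Only 200 genes were changed there, whereas 3797 were called in the data. The adjusted p depends on how many genes change, so these shares need not hold for the data. Tables and figures used Python 3.11.15.

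The members and lists were chosen with earlier results of these data known. Named genes were all members, HOTAIR, the 4 smallest p of each list, members completing counts of 5 or fewer and the 3 profiles nearest the most changed called member. Others were chosen after their values were seen, and some listed genes are not reported here. Alternatives were other pseudocounts (0.1, 0.01), filters (none, 5 FPKM), scalings and limma settings, a replicate block, regional centring on 50 neighbours, each library left out, and, chosen after seeing the data, GC centring. Markers of luminal epithelial, fibroblast, leukocyte, endothelial and basal cells were checked: 5 of 8, 1 of 5, 1 of 5, 1 of 5 and 4 of 5 reached 1 FPKM in any library.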

Additional observations from a re-analysis of the deposited data

How the results depend on the processing

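All 10 members kept the direction of their change under every alternative run for them. FOSL2, JUN and JUNB were also called under all 17.

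The FOS change (-0.46) was not called without a filter (-0.46), after the median of ratios (-0.44), with the replicate block (-0.46), with regional centring (-0.54) or with GC centring (-0.43), and was -0.52 to -0.35 with 1 library left out. FOSB (-0.52) was called with a pseudocount of 0.01 (-1.0), without a trend (-0.52) and without shCtrl 2 (-0.61, limma adjusted p = 0.0435). It was -0.61 to -0.41 with 1 library left out. BATF3 (-0.43) was called with pseudocounts of 0.1 (-0.49) and 0.01 (-0.50), quantile normalization (-0.43), robust eBayes (-0.43) and without shCtrl 3 (-0.54). It was -0.54 to -0.34 with 1 library left out. FOSL1 was not called with the replicate block (0.33) and ranged from 0.31 to 0.38 with 1 library left out, as JUND did from -0.90 to -0.65. With 1 library left out 3 to 5 members were called, and 3 to 8 over all alternatives. FOSB and FOS have no value at a minimum of 5 FPKM.

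Over all genes 3797 were called, 1740 with the replicate block, 2307 with regional centring and 2470 to 3159 with 1 library left out. MAP kinase genes called numbered 3, with 1 under the replicate block and 1 to 4 with 1 library left out. SRF and its partners numbered 2, with 1 without a filter, 0 under the replicate block, 0 with regional centring and 1 to 3 with 1 library left out. Other immediate early genes numbered 5, with 8 at a pseudocount of 0.01, 3 without a filter, 8 without a trend, 2 under the replicate block and 3 to 5 with 1 library left out. The JUN and FOS turnover genes numbered 0, with 1 under regional centring. Reported targets numbered 16, with 8 under the replicate block. NRF2 and small MAF targets numbered 7, with 3 without a filter, 3 under the replicate block, 2 with regional centring and 3 to 4 with 1 library left out. Under the replicate block the calls of NFE2L2, RPS6KA1, MAPK12, SRF, MEF2A, KLF4, IER3 and IER5 were lost. So were those of MMP10, GCLC, GCLM, TXNRD1 and ME1. Where a value or call changed, the cause was not tested. Same-numbered libraries of the 2 groups did not deviate together (correlations of -0.0221, 0.00696 and -0.0307), so the replicate block pairs numbers only. Fragment numbers were not given, which limits what can be said of low genes such as FOSB.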

Other observations

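Genes driven by NRF2 together with small MAF proteins, the partners of MAFF and MAFK, moved in both directions. Of 9 tested 4 rose and 3 fell, with a median log2 change of -0.03. The share called was 77.8%, against 23.8% of all genes tested, and with regional centring only 2 were called. NQO1, a quinone reductase, rose from 17.3 ± 0.141 to 39.1 ± 2.83 FPKM, a log2 change of 1.13 (limma adjusted p = 0.000645). SRXN1, which repairs oxidised peroxiredoxins, rose by 0.50 (0.12 after regional centring, limma adjusted p = 0.273). GCLM, the modifier subunit of the enzyme that starts glutathione synthesis, rose by 0.36, whereas its catalytic partner GCLC (-0.31), TXNRD1 (-0.30) and ME1 (-0.25) fell. The calls of GCLC and TXNRD1 were lost when any 1 library was left out (limma adjusted p up to 0.0916 and 0.118), that of GCLM without any library but shCtrl 2 (up to 0.125) and that of ME1 without any but shHOTAIR 1 (up to 0.135). After regional centring GCLM (0.19), TXNRD1 (-0.24) and ME1 (-0.20) were not called, and GCLC was at 0.06 (limma adjusted p = 0.623).

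HMOX1, the haem oxygenase gene that BACH1 represses, read 1.39, 1.55 and 1.36 FPKM in the shCtrl libraries and 0.688, 0.886 and 1.07 FPKM in the shHOTAIR libraries, without overlap, and missed the threshold (log2 change -0.38, limma adjusted p = 0.145). SLC7A11, a cystine transporter gene, averaged 37.6 ± 4.24 FPKM in shCtrl and 36.7 ± 1.55 FPKM in shHOTAIR, with overlapping groups (limma adjusted p = 0.852).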
